A study of Mus musculus with 10 samples.

Results

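Histone genes and histone variants were examined in RNA-seq tables of mouse testis and Sertoli cells. Members were the genes whose current or older symbol begins with Hist1h to Hist4h, H1f, H2af, H2bf, H3f or Hils1. There were 86 such genes among the 20142 genes listed in either table, 81 among 20007 genes in adult testis and 80 among 17816 genes at day 7, and 75 were in both. Only 16 adult and 13 day 7 members matched by the symbol the tables print, and the others matched through the older symbols that RefSeq gives for the same gene ID. Of the 86, 64 were replication-dependent histones (5 of H1, 17 of H2A, 17 of H2B, 12 of H3 and 13 of H4), 11 were replacement variants and 11 were variants known from germ cells. On GRCm38.p6, 55 members lie on chromosome 13, 11 on chromosome 3 and 6 on chromosome 11.

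DNA in the nucleus is wrapped around a core of histones H2A, H2B, H3 and H4, and the linker histone H1 binds where DNA enters and leaves that core. Replication-dependent histones are made when DNA is copied, from clustered genes whose mRNAs end in a stem-loop in place of a poly(A) tail, whereas replacement variants are made throughout the cell cycle from polyadenylated mRNAs. Germ cells of the testis add variants of their own, and spermatids exchange most histones for transition proteins and then protamines. RNF20 is the ubiquitin ligase that places ubiquitin on lysine 120 of histone H2B.

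The samples were 6 libraries of adult testis tissue from mice, 3 labelled WT and 3 labelled RNF20 conditional knockout, and 4 libraries of Sertoli cells at 7 days after birth, 2 of Rnf20 Flox/Flox mice, labelled WT, and 2 of Amh-Rnf20-/- mice, labelled RNF20 conditional knockout. In the Amh-Rnf20-/- mice the Amh promoter drives Cre, so the deletion is made in Sertoli cells, the somatic cells that nurse germ cells, and the germ cells themselves keep the gene. The day 7 Sertoli cells were released with collagenase and trypsin and cultured, while the adult libraries hold all the cells of the testis, and the study's methods do not describe the adult libraries, their Cre driver, strain or age. The study's methods speak of individuals for the day 7 cells. For the adult libraries no source used here says that they come from separate animals, so p-values measure the spread between these samples, which may be technical. The growth field of every sample reads adult tissue, whereas the titles and methods give 7 days for the Sertoli cells.

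All libraries were enriched with oligo(dT), which captures poly(A) tails, so mRNAs that end in the stem-loop are mostly missed. The levels below are of captured mRNA, and how much of it carried a poly(A) tail was not measured. The loop was searched in the transcript models, on the transcript strand, as the arms GGCNCT and AGNGCC around a loop of TTTN. It stood in the models of 41 of 64 replication-dependent members (64.1%), of 1 of 10 replacement variants with a model (H2ax) and of 2 of 10 germ cell variants with a model (H1f6 and H2bfm). Of all 55450 annotated genes, 47 had it (0.0848%), and 44 of these were members. Of the 23 replication-dependent members without it, 9 have models that hold the coding sequence alone, so the place of the loop is not covered. The 25 bases around the loop are shown for members that the results below turn on, with the match in capitals.
H1f2: aaaaGGCTCTTTTCAGAGCCaccac
H1f6: caaaGGCTCTTTTAAGAGCCactta
H2ac18: aaaaGGCTCTTTTCAGAGCCaccca
H2ac23: aaaaGGCTCTTTTCAGAGCCatcca
H2bc22: caaaGGCTCTTTTCAGAGCCaccca
H3c1: caaaGGCTCTTTTCAGAGCCacaca
H4c9: taaaGGCCCTTTTTAGGGCCaccac
H2ax: caaaGGCCCTTTTAAGGGCCaccac

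Several of the abundant members have a model that runs on past the loop, as a polyadenylated histone mRNA does. The longest H1f2 model has 840 nt after the loop and an AATAAA, the usual poly(A) signal, in its last 40 nt. H2ax, a replacement variant with a loop, has 822 nt after it. H2bc22 has 2 models, of which the longer one lacks the loop. An AATAAA stands near the end of at least 1 of the 2, and which one was not recorded. The models of H2ac18 and H3c1 end 35 and 37 nt after the loop, so for them the annotation shows no such longer form. Among 40 replication-dependent members whose loop could be placed, 20 had over 100 nt after it and 20 had at most 100. Members with the longer end were not the higher ones. The median of the mean FPKM (fragments per length of transcript and per library size) in adult testis was 0.627 over 19 members with the longer end, 1.73 over 17 with the shorter end and 0.618 over 22 without a loop. At day 7 these medians were 0.881 over 20, 2.68 over 20 and 1.79 over 22. These are descriptions across genes, and members share sequence.

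Promoters of replication-dependent members were searched for 6 motifs, most of them known from histone genes. In windows of 250 bases before to 50 bases after the start, searched on both strands, CCAAT stood in 84.7% of 59 members and in 37.9% of all 27025 promoters. TATAAA stood in 55.9% against 14.2%, TGACGT, the core of the cyclic AMP response element, in 25.4% against 7.64% (the full element TGACGTCA, which contains it, in 6.78% against 1.88%), and the octamer ATTTGCAT in 18.6% against 1.75%. The E-box CANNTG stood in 67.8% against 72.1%. Sequences came from RefSeq on GRCm38.p6, which gave no promoter for 6 members. The 250 bases before the start are shown for 4 members on chromosome 13, of which H2bc22, H2bc1 and H4c1 were lower at an adjusted p under 0.05 and H1f2 was higher in the adult comparison. They are H2bc22 (chr13:21787238-21787487, plus strand), the germ cell variant H2bc1 (chr13:23934157-23934406, minus strand), H4c1 (chr13:23761250-23761499, minus strand) and H1f2 (chr13:23738557-23738806, plus strand). The H2bc22 window ends a few bases past the gene start given below, where the RefSeq promoter table places its start. Capitals mark matches to these motifs other than the E-box on either strand, the full response element being marked whole.
H2bc22: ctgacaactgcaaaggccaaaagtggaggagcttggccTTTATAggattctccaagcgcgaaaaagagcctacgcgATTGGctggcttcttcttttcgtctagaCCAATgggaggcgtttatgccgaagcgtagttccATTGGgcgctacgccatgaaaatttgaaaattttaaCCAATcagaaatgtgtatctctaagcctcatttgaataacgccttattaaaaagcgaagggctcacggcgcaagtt
H2bc1: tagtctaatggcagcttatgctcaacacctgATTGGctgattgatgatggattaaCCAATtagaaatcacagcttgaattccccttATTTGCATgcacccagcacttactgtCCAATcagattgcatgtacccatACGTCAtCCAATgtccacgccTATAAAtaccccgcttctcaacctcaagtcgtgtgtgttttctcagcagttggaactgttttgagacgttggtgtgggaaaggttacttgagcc
H4c1: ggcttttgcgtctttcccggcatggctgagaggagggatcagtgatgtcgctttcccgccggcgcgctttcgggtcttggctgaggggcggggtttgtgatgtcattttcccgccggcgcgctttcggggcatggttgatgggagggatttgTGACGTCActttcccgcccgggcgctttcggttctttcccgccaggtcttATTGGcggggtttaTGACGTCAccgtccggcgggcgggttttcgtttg
H1f2: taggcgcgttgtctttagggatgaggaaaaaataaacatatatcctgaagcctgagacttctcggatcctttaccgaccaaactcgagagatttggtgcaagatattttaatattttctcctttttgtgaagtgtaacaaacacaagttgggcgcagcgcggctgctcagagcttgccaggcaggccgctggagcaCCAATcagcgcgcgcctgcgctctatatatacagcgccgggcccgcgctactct

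H2bc22 and H2bc1 each hold 4 CCAAT and 1 TATAAA, and H2bc1 adds the octamer and 1 TGACGT core. H4c1 holds 2 full TGACGTCA elements and 1 CCAAT, with no TATAAA. H1f2 holds 1 CCAAT and none of the other motifs in this window. A match describes the letters alone.

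Depth was alike within each table, with 15431912 to 16574144 estimated counts per adult library and 17477268 to 17705347 per day 7 library. In the adult table the TMM factors, which correct for makeup, were 0.711 to 0.761 in WT and 1.27 to 1.42 in the libraries labelled knockout. Dividing by total counts alone moved the log2 fold change of the median gene from 0.01 to 0.87, so each adult fold change below is relative to a typical gene, and FPKM, which are not so corrected, can rise where the fold change falls. At day 7 the factors were 0.984 to 1.02. Rnf20 itself was at FPKM 4.89, 3.32 and 4.09 in adult WT and 9.16, 5.76 and 9.85 in the libraries labelled knockout, against the label in direction, with a log2 fold change of 0.12 (SE 0.27, adjusted p = 0.688), or 0.97 with total-count scaling (adjusted p = 0.0168). At day 7 it was at 16.6 and 16.01 in Rnf20 Flox/Flox and 10.3 and 12.6 in Amh-Rnf20-/- Sertoli cells, lower in both (log2 fold change -0.49, SE 0.12, adjusted p = 0.222). By Western blot the study reports less RNF20 and less ubiquitinated H2B in adult Amh-Rnf20-/- testes. That measures protein, whereas FPKM over the whole gene and all testis cells does not read a deletion made in Sertoli cells alone.

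The adult libraries also differed in which cells' markers they held. The summed FPKM of 12 spermatid markers was 134356 to 204449 in WT and 4.51, 137.1 and 87.9 in labelled knockout replicates 1 to 3, with 4 of the 12 (Prm1, Acrv1, Smcp and Oaz3) at 0 in replicate 1. That of 12 spermatocyte markers was 5334 to 5573 in WT and 2.71, 335.8 and 484.2. Markers of Leydig cells, macrophages and fibroblasts passed the call rule given below as higher in 7 of 7, 7 of 7 and 6 of 6. The sum of 12 spermatogonium markers was 265.3 to 297.1 in WT and 48.5, 305.5 and 445.3. Of these markers 10 were tested, 2 were called higher and 0 lower, and their median log2 fold change was -1.31. At an adjusted p under 0.05, 2 were higher and 4 lower, beside 40.9% and 40.6% of all genes. Of 7 myoid markers 4 were called higher and 1 lower, and of 7 endothelial markers 2 were called higher. Of 15 Sertoli markers 2 (Gata4 and Kitl) were called higher and 1 (Rhox5, at -5.57) lower, and their median log2 fold change was 1.35. Over all genes 23% were called higher and 23.7% lower. In such tissue, fewer cells of a type and less RNA per cell cannot be told apart.

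In adult testis the question was how histone mRNAs differ between libraries labelled RNF20 conditional knockout and WT. Of the 11 germ cell variants, 9 were lower in the labelled knockout libraries at an adjusted p under 0.05, H2ab1 did not pass and H1f8 was not tested. The linker histones H1f2 and H1f0 and the H2A variant H2aj were higher there. Of the 81 members, 57 passed the filter (FPKM of at least 0.5 in at least 3 libraries). By the call rule (edgeR quasi-likelihood test, Benjamini-Hochberg adjusted p under 0.001 and absolute log2 fold change over 1), 3 were higher, 12 were lower and 42 were not called. Among all 15919 genes tested 46.7% were called, 23% as higher and 23.7% as lower. At an adjusted p under 0.05, 6 members were higher and 27 lower, beside 40.9% and 40.6% of all genes. At an unadjusted p under 0.05 they were 7 and 27, beside 82.6% of all genes in either direction. In TMM-scaled counts 8 members lay above WT and 26 below it in every labelled knockout library, beside 42.4% and 43.1% of all genes. Of the 57, 6 passed the filter through WT alone (H1f6, H2ac1, H2ac22, H2al2a, H2bc1 and H3c10, of which 4 were called) and 4 through the labelled knockout alone (H2bc18, H2bc6, H2bc8 and H4c14, of which 0 were called). These had to differ to be tested, so the counts of members here and below are a description. The median log2 fold change of the 57 was -1.08, and -0.22 with total-count scaling. Without labelled knockout replicate 1 the calls rose to 21 members and 10301 genes, and without any other 1 library they fell to 4 members and 2695 to 4688 genes.

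**Figure D1:**
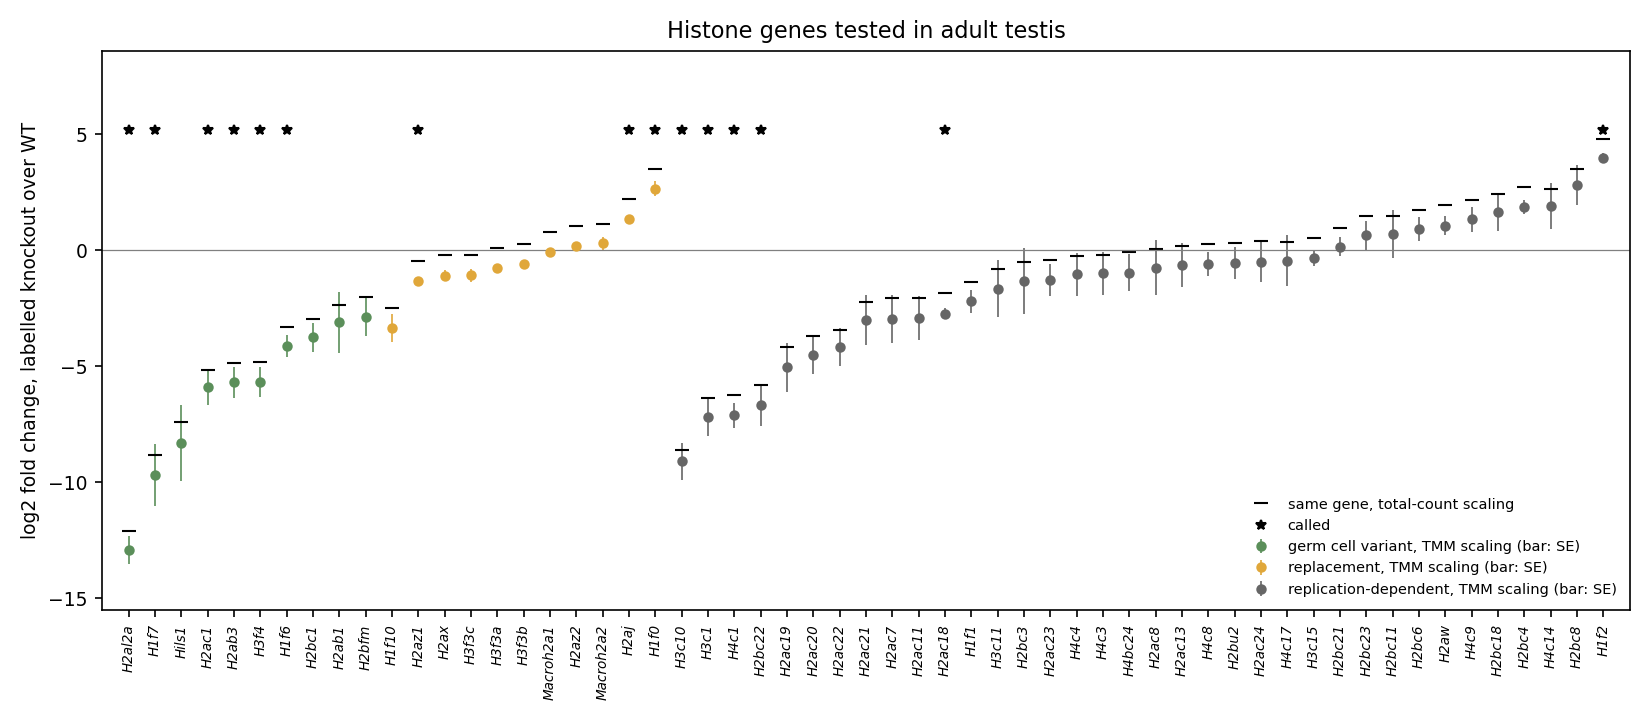
Log2 fold change of the 57 histone genes tested in adult testis, libraries labelled knockout over WT (3 each), with points for TMM scaling, bars for the SE, dashes for total-count scaling and stars for called genes. All 10 germ cell variants lie below 0 on both scalings, and H1f2 is the highest point at 3.97.

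Germ cell variants made the widest contrast. Of 10 tested, 0 were called higher and 6 lower (23% and 23.7% of all genes), and 9 were lower at an adjusted p under 0.05 (40.6% of all genes). H1f6, H2ac1 and H2al2a, 3 of the 6, entered through WT alone, and so did H2bc1, which passed the looser threshold only. Over the 10 the median log2 fold change was -5.69 (-4.85 with total-count scaling). As members that entered through WT alone had to differ to be tested, the counts and the median of this class are a description. Hils1 (chr11:94967593-94968456), a linker histone of elongating spermatids, had FPKM of 1245, 1410 and 1163 in WT and 0, 13.5 and 8.91 in the labelled knockout libraries. Its WT level ranked 80 of 20007 genes, and no WT library overlapped a labelled knockout library. The log2 fold change was -8.31 (SE 1.62, adjusted p = 0.00339), past the looser threshold only. Hils1 lies opposite Sgca, and how reads were assigned to strand is not given in the sources used here.

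H1f7 (chr15:98255982-98257307), the linker histone also known as H1T2 that marks one pole of the spermatid nucleus, had FPKM of 590.9, 522.4 and 470.7 in WT and 0, 2.25 and 1.21 in the libraries labelled knockout (log2 fold change -9.70, SE 1.34, adjusted p = 0.000746). H2al2a (chr2:17996417-17996958), an H2A variant that acts where transition proteins load, had 1099, 1230 and 906.6 in WT and 0, 0.22 and 0.45. The labelled knockout libraries held 0, 1 and 2 of its estimated counts, a WT to knockout count ratio of 4910 with a 95% counting interval of 1680 to 23813, and its log2 fold change was -12.91 (SE 0.60, adjusted p = 2.79e-05). It entered the test through WT alone. H2al2a was thus at or below 3 counts in all 3 labelled knockout libraries, whereas H1f7 was at 0 in replicate 1 alone, with 39 and 20 counts in replicates 2 and 3. The groups of both genes did not overlap.

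H1f6, the H1t of spermatocytes, was low in both groups, at FPKM 2.90, 2.17 and 1.91 in WT and 0.13, 0.39 and 0.13 in the labelled knockout libraries (log2 fold change -4.14, SE 0.48, adjusted p = 0.000351). The H1f6 model has the stem-loop shown above, then 185 nt after it, with an AATAAA in its last 40 nt. H2ac1 and H2bc1, the testis H2A and H2B known as TH2A and TH2B, lie next to each other on chromosome 13 and are transcribed apart. H2ac1 was at 2.73, 5.54 and 5.43 in WT and 0, 0.28 and 0 in the labelled knockout (log2 fold change -5.91, SE 0.78, adjusted p = 0.000622). H2bc1 was at 2.38, 1.91 and 2.07 against 0.36, 0 and 0.36 (-3.76, SE 0.61, adjusted p = 0.00152). H1f6 and H2ac1 met the call rule and H2bc1 did not, and as all 3 entered the test through WT alone these calls are a description.

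The remaining germ cell variants were at WT levels under those of Hils1, H1f7 and H2al2a. H2ab3, of the short H2A.B type, was at FPKM 11.02, 11.3 and 12.2 in WT and 0, 0.64 and 0.50 (log2 fold change -5.70, SE 0.65, adjusted p = 0.000323). H3f4, the testis H3 known as H3t, was at 15.1, 17.2 and 16.4 against 0, 0.81 and 0.84 (-5.68, SE 0.66, adjusted p = 0.000353). H3f4 lies within the span of Trim17 on the same strand. H2bfm was at 2.06, 2.62 and 2.39 against 0, 0.86 and 0.90 (adjusted p = 0.0175), and H2ab1, which shares 43.8% of its 50-nt windows with another member, was at 0, 1.86 and 2.37 against 0, 0 and 0.63 (adjusted p = 0.0657). H1f8, the linker histone of oocytes, was at most 0.21 in any library and was not tested. In labelled knockout replicate 1, which also held 4 spermatid markers at 0, 8 of the 10 tested variants were listed at 0. The part of cell makeup in these differences was not tested.

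**Figure D2:**
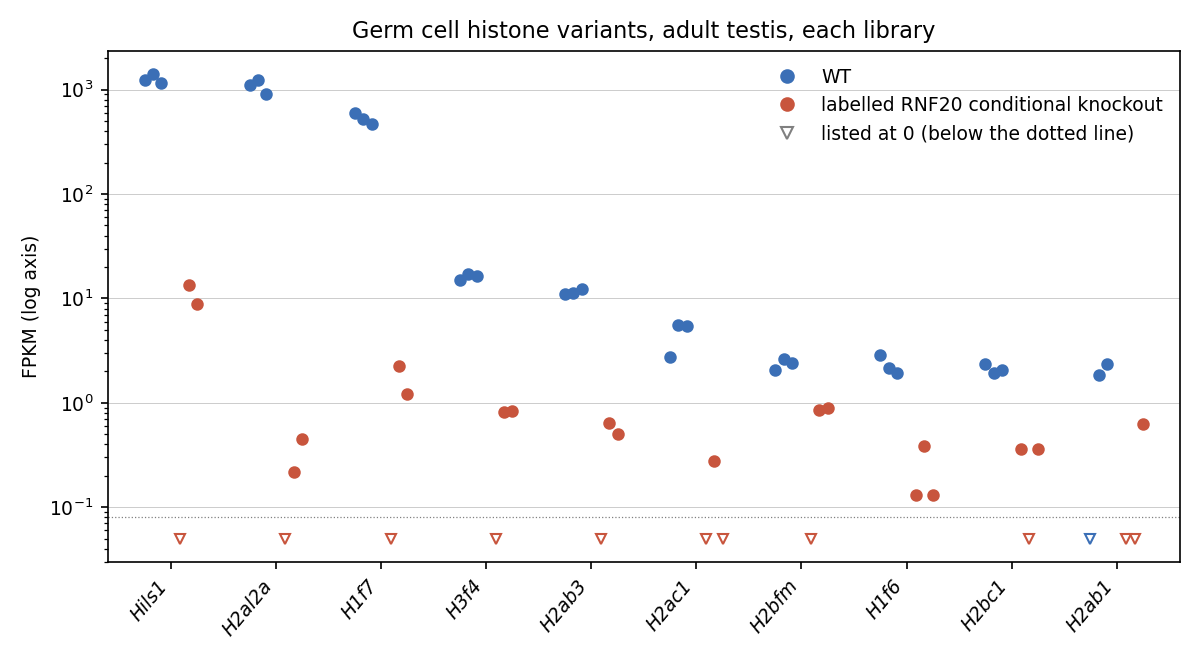
FPKM of the 10 germ cell variants tested in adult testis on a log axis, 1 point per library, with open triangles for libraries listed at 0. WT libraries lie above labelled knockout libraries in 9 genes, and H2ab1 has a WT library at 0.

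All 11 replacement variants were tested. Of these, 2 were called higher and 1 lower, beside 23% and 23.7% of all genes, so both shares were below those of all genes. The median log2 fold change was -0.61, or 0.25 with total-count scaling. H1f0 (chr15:79028212-79030504), the linker histone of cells that have stopped dividing, was at FPKM 7.35, 8.37 and 6.67 in WT and 114, 82.8 and 56.5 in the labelled knockout libraries, and the groups lay far apart. Its mean rose from 7.46 ± 0.856 to 84.4 ± 28.8 (SD, n = 3 each), and its log2 fold change was 2.66 (SE 0.32, adjusted p = 0.000433). H1f10, the other linker histone made outside S phase, went the other way, at 53.8, 62.9 and 56.3 in WT against 2.66, 11.1 and 17.2 (log2 fold change -3.37, SE 0.60, adjusted p = 0.00225). H1f10 had no overlap between groups but passed the looser threshold only.

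Among H2A variants, H2aj (chr6:136808248-136810074), a variant known to build up in senescent cells, was at FPKM 10.4, 11.6 and 8.40 in WT and 42.8, 50.4 and 48.9 in the labelled knockout libraries (log2 fold change 1.36, SE 0.17, adjusted p = 0.000436). H2az1 (chr3:137864487-137866922), the main H2A.Z gene, was at 308.5, 300 and 302.3 in WT and 172, 235.1 and 257.7 (log2 fold change -1.32, SE 0.17, adjusted p = 0.000609). Both separated the groups in FPKM, in opposite directions. With total-count scaling H2aj stayed higher at 2.22, whereas H2az1 was at -0.46 with an adjusted p of 0.0617. H2ax, which marks DNA breaks when phosphorylated and coats the sex chromosomes of spermatocytes, was at 39.8, 42.6 and 36.1 against 21.7, 37.2 and 43.1 (log2 fold change -1.09, SE 0.24, adjusted p = 0.0056). Its FPKM overlapped between the groups, and its total-count value was -0.22.

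H2az2, the other H2A.Z gene, was at FPKM 16.8, 19.0 and 14.3 in WT and 38.8, 33.0 and 31.1 in the labelled knockout libraries, with a log2 fold change of 0.18 (SE 0.19, adjusted p = 0.413) that was 1.03 with total-count scaling and -0.02 with median-ratio scaling. Macroh2a1, whose protein carries a large non-histone domain, was at 26.6, 27.3 and 29.8 against 37.0, 43.6 and 55.3 (-0.07 with TMM, 0.79 with total-count scaling, adjusted p = 0.635 with TMM). Macroh2a2 was at 9.02, 8.10 and 8.10 against 24.7, 13.5 and 14.5 (0.30 and 1.14). For these 3 the groups separated in FPKM, and none passed a threshold relative to a typical gene.

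H3f3a and H3f3b both encode H3.3, the H3 that is put in place outside replication, and were the most abundant H3 mRNAs. H3f3a (chr1:180802560-180813605) was at FPKM 641.9, 699.2 and 708.8 in WT and 665.1, 737.7 and 763.9 in the labelled knockout libraries, with overlap. H3f3b (chr11:116021961-116026039) was at 281.8, 317 and 307.4 against 370.8, 320.9 and 389.5. Relative to a typical gene they were at -0.78 (SE 0.18, adjusted p = 0.0064) and -0.61 (SE 0.19, adjusted p = 0.0244), and the signs turned to 0.08 and 0.25 with total-count scaling. H3f3c was at 2.57 to 3.55 in WT and 2.48 to 2.92 in the labelled knockout (log2 fold change -1.08, -0.22 with total-count scaling, adjusted p = 0.0102). H3f3c shares 67.7% of its windows with the far more abundant H3f3a, so the split of fragments between them is an estimate. The annotations used here differ on H3f3c, which is listed as a processed pseudogene or as protein-coding. How much of its level comes from fragments of H3f3a was not tested.

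Replication-dependent members were mostly low, as 36 of 59 had a mean FPKM under 1 in adult testis and 9 had 10 or more. Of the 36 tested, 1 was called higher and 5 lower, beside 23% and 23.7% of all genes, and at an adjusted p under 0.05 these counts were 4 and 12, beside 40.9% and 40.6%. Each of these shares of the 36 was below that of all genes. The median log2 fold change was -0.86, or -0.03 with total-count scaling. The 23 that were not tested reached at most 2.24 in any library.

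H1f2 (chr13:23738807-23739531), known as H1.2 or H1c, was the member that rose most. It was at FPKM 3.09, 2.61 and 3.38 in WT and 100.7, 78.2 and 79.1 in the labelled knockout libraries, with no overlap. Its mean was 28.4 times that of WT, and its log2 fold change was 3.97 (SE 0.22, adjusted p = 3.42e-05), or 4.81 with total-count scaling. It shares 8.54% of its 50-nt windows with another member. H1f1 was at 0.99, 0.50 and 1.25 against 0.26, 0.25 and 0.53 (-2.20, adjusted p = 0.00669), and H1f3, H1f4 and H1f5 reached at most 0.47.

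H2ac18 (chr3:96245497-96246052) was the most abundant replication-dependent histone mRNA. It was at FPKM 1031, 1305 and 947.8 in WT and 252.7, 340.5 and 316.2 in the labelled knockout libraries (log2 fold change -2.73, SE 0.22, adjusted p = 9.27e-05). H2ac19 was at 104.5, 141.6 and 70.4 against 0, 13.0 and 4.58 (-5.05, SE 1.07, adjusted p = 0.00481). All windows of H2ac19 (100%) also occur in H2ac18, so the split of fragments between the 2 is an estimate. H2aw, within the span of Trim17, was at 11.5, 14.7 and 9.29 against 22.7, 56.2 and 57.7 (1.06, SE 0.40, adjusted p = 0.0471). Of 12 replication-dependent H2A members tested, H2aw was the only one higher at an adjusted p under 0.05 and 7 were lower, beside 40.9% and 40.6% of all genes.

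Of 11 replication-dependent H2B members tested, 0 were called higher and 1 lower, beside 23% and 23.7% of all genes. H2bc22 (chr13:21787483-21801561) was at FPKM 136.2, 188.3 and 134.2 in WT and 0, 2.21 and 6.11 in the labelled knockout libraries (log2 fold change -6.69, SE 0.89, adjusted p = 0.000628). H2bc4 (chr13:23684199-23692480), whose 1156-nt model holds no loop, was at 14.1, 27.0 and 23.4 against 114.8, 170.4 and 143.5 (1.86, SE 0.29, adjusted p = 0.00128). Neither pair of groups overlapped, and H2bc4 passed the looser threshold only. H2bc8, which entered the test through the labelled knockout alone, was at 0.33, 0 and 0 against 1.94, 1.49 and 1.14. H2bc21 was at 5.93, 3.29 and 5.74 against 15.1, 7.53 and 6.76 (0.15, or 0.97 with total-count scaling), and H4bc24, which despite its symbol is the H2B gene Hist1h2br, was at 1.10, 19.6 and 5.23 against 12.2, 2.40 and 4.95.

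H3c1, H3c10 and H4c1 were at FPKM 2.62 or less in the labelled knockout libraries. H4c1 (chr13:23760795-23761249) was at FPKM 81.7, 117.8 and 98.4 in WT and 0.88, 0.32 and 2.62 (log2 fold change -7.12, SE 0.53, adjusted p = 7.44e-05). H3c1 (chr13:23761885-23762386), its neighbour, was at 13.2, 23.2 and 14.0 against 0, 0.51 and 0 (-7.19, SE 0.80, adjusted p = 0.000303). H3c10 (chr13:21717628-21718115) was at 8.16, 14.5 and 16.1 against 0 in each labelled knockout library, so it was at least 15.9-fold lower at a floor of 3 counts per library (adjusted p = 0.000674). It entered the test through WT alone. In H3c10 93.9% of windows also occur in another member, against 49.5% in H3c1 and 40.4% in H4c1.

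No other replication-dependent H3 or H4 member tested was lower at an adjusted p under 0.05. H3c15 was at FPKM 9.68, 8.10 and 7.58 in WT and 9.75, 17.5 and 9 in the labelled knockout libraries (log2 fold change -0.34, or 0.51 with total-count scaling). H4c8 was at 8.24, 7.28 and 5.75 against 3.02, 14.2 and 8.35 (-0.59, adjusted p = 0.335). H4c9 was at 0.81, 1.23 and 1.59 against 8.53, 3.35 and 5.09, and its groups did not overlap (1.33, SE 0.54, adjusted p = 0.0586). The remaining tested replication-dependent members of these 2 families were under 3 FPKM in every library.

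The makeup of each family differed between the groups. These are shares of the summed TPM of a family, a length-corrected unit, given as a description. They cover mRNA captured with oligo(dT), which mostly misses mRNAs that end in the stem-loop, so they are not the makeup of all histone mRNA. Of H1 mRNA, germ cell variants made up 96.6%, 96.3% and 96.0% in WT and 0.125%, 8.57% and 6.33% in the labelled knockout libraries. H1f2 went from 0.162%, 0.130% and 0.198% to 46.2%, 41.3% and 48.1%, and H1f0 from 0.386%, 0.416% and 0.391% to 52.3%, 43.8% and 34.4%. Among captured linker histone mRNAs, the 2 groups thus had almost no gene in common at a high share.

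Of H2A mRNA, germ cell variants made up 41.2%, 39.5% and 38.9% in WT and at most 0.182% in the labelled knockout libraries. Replacement variants went from 15.2%, 12.9% and 16.7% to 54.8%, 49.0% and 52.0%. H2ac18 alone held 38.2%, 41.3% and 39.8% in WT and 41.0%, 40.4% and 36.5% in the labelled knockout, so its share overlapped although its level fell. Of H2B mRNA, H2bc22 made up 81.5%, 75.8% and 73.9% in WT and at most 3.38% in the labelled knockout, whereas H2bc4 went from 8.44%, 10.9% and 12.9% to 70.7%, 87.6% and 79.3%.

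Of H3 mRNA, replacement variants were over 94% in every library, at 94.7%, 94.2% and 94.7% in WT and 98.8%, 98.2% and 99.0% in the labelled knockout. H4 has no replacement variant here. H4c1 held 86.5%, 88.3% and 90.3% of H4 mRNA in WT and 4.78%, 1.36% and 12.5% in the labelled knockout, where H4c9 held 46.2%, 14.4% and 24.3%. All members together were 0.628%, 0.665% and 0.642% of summed TPM in WT and 0.258%, 0.295% and 0.324% in the labelled knockout libraries. The germ cell variants alone were 0.304% to 0.322% of summed TPM in WT and at most 0.00241% in the labelled knockout.

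**Figure D3:**
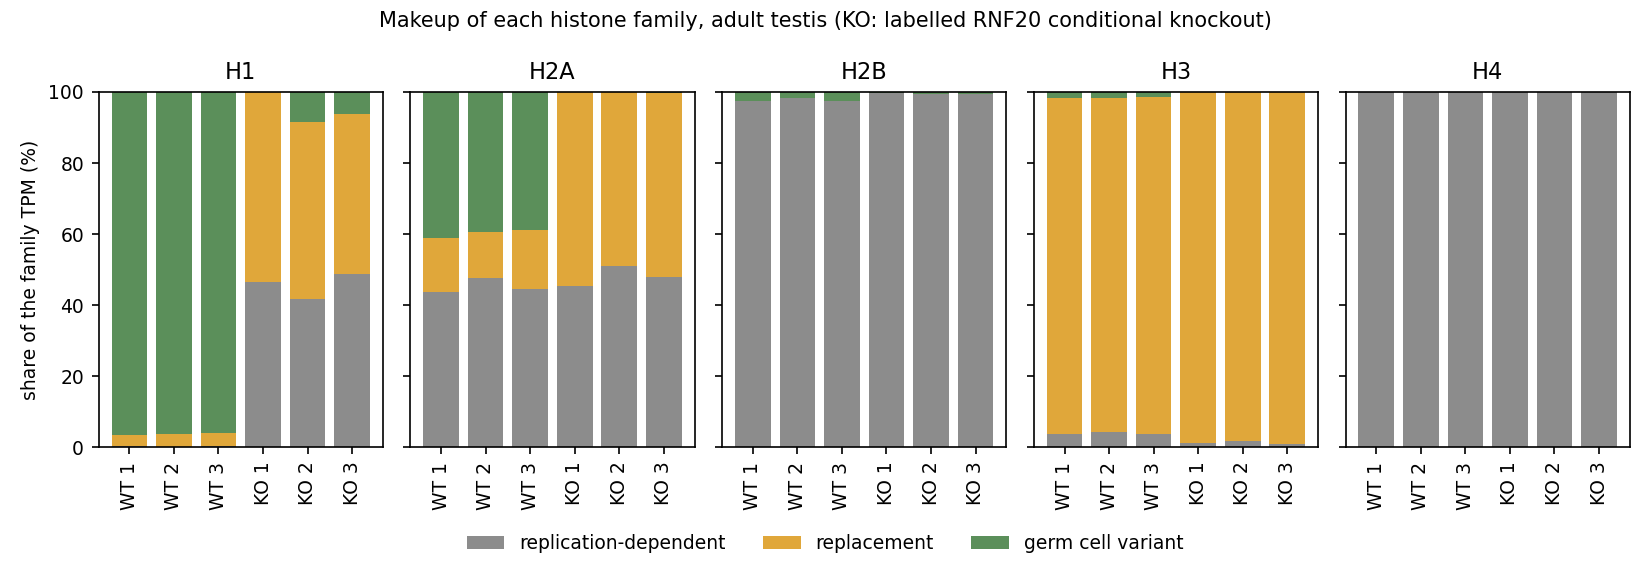
Share of each family's summed TPM held by replication-dependent, replacement and germ cell members in each adult library (WT 1 to 3, then labelled knockout 1 to 3). Germ cell variants fill 96.0% to 96.6% of H1 in WT and at most 8.57% in the labelled knockout libraries.

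Within the clusters there were 13 pairs of members transcribed away from each other with starts 176 to 660 bases apart (median 268). Some of these neighbours differed widely in level in both groups of a table. In adult testis H2ac22 averaged FPKM 1.45 in WT and 0.137 in the labelled knockout libraries, and its partner H2bc22 152.9 and 2.77. H2ac6 averaged 0.12 and 0.48, and its partner H2bc4 21.5 and 142.9. At day 7 H2bc23 averaged 2.86 in Rnf20 Flox/Flox and 2.60 in Amh-Rnf20-/- cells, and its partner H2ac23 205.3 and 330.9. Other pairs were closer, such as H2ac12 and H2bc12 at day 7, at 5.49 and 4.68 against 2.46 and 2.85. Members that share sequence share estimated counts.

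Genes that supply and remove histones were read beside the members. Of 29 genes for histone transport, chaperones, mRNA processing and exchange, 2 were called higher and 7 lower in the adult comparison (median log2 fold change -0.46), beside 23% and 23.7% of all genes. The share called lower is thus near the background and that called higher below it. The higher 2 were Atrx (3.05), which helps place H3.3, and Anp32e (1.88), a chaperone that takes H2A.Z out. Of the lower 7, Chaf1a (-4.21) is the large subunit of the CAF-1 chaperone of replication, Nasp (-4.04) is a chaperone of H3 and H1, and Ipo4 (-3.11) is an importin that carries H3 and H4. Slbp, the protein that binds the stem-loop, was at -1.96. Of 9 genes for histone removal in spermatids, 0 were called higher and 7 lower (median -3.96), beside the same background. Tssk6 (-10.15), a kinase, Chd5 (-6.96), a remodeller, and Brdt (-4.69), a reader of acetylated histones, fell most.

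Of 19 genes of DNA replication and proliferation, 2 were called higher (Mcm2 at 1.32 and Mcm4 at 1.29) and 3 lower (Mcm7 at -2.66, Gins2 at -2.0 and Pcna at -1.07), with a median log2 fold change of -1.23. Their summed FPKM was 303.2 to 332.1 in WT and 140.1, 212.6 and 288.7 in the labelled knockout libraries. Among all genes tested, 23% were called higher and 23.7% lower, so both shares of this list were below that. Their part in the histone values was not tested.

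At day 7 the question was how histone mRNAs of Sertoli cells differ when Rnf20 is deleted in them. No member was called. Of 80 members 59 passed the filter (FPKM of at least 0.5 in at least 2 libraries), and the edgeR quasi-likelihood test called 0, beside 0% of 12880 genes. At an unadjusted p under 0.05 there were 2 members higher, H1f10 and H4c18, and 1 lower, H2ac18, beside 15.5% of all genes, 8.52% higher and 6.99% lower. DESeq2 called 0 members and 126 genes in all (0.978%). In TMM-scaled counts 8 members lay above and 10 below the controls in both Amh-Rnf20-/- libraries, beside 24.8% and 26.1% of all genes (51% in either direction), and the median log2 fold change was 0.04. With 2 libraries per group these values bound small differences loosely.

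By mean FPKM over all day 7 libraries, the 3 most abundant members were replacement variants. In Amh-Rnf20-/- cells alone, the replication-dependent H2ac23 averaged 330.9, above H3f3b at 314.1. H3f3a was at FPKM 424.6 and 441.6 in Rnf20 Flox/Flox and 436.6 and 419.7 in Amh-Rnf20-/- Sertoli cells (log2 fold change 0.02). H2az1 was at 431.7 and 408.9 against 310.5 and 434.8 (-0.14), and H3f3b at 350.9 and 355.5 against 304.8 and 323.5 (-0.13, adjusted p = 0.462). Of these 3, H3f3b alone had no overlap between groups in FPKM. Macroh2a1 was at 75.9 and 76.5 against 75.6 and 77.5 (0.05), H1f0 at 90.5 and 98.0 against 85.4 and 102.8 (0.04), and H2ax at 104.9 and 107.8 against 82.5 and 121.7. These 3 overlapped.

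H2aj was at FPKM 33.0 and 37.0 against 29.2 and 32.2 (log2 fold change -0.15, SE 0.10, adjusted p = 0.543). H1f10 was at 13.9 and 12.6 against 16.2 and 21.2, higher in both Amh-Rnf20-/- libraries (0.54, SE 0.18, adjusted p = 0.294). H2az2 (18.7 and 18.9 against 16.2 and 21.3), Macroh2a2 (23.7 and 20.4 against 21.4 and 24.6) and H3f3c (1.64 and 1.88 against 1.63 and 1.92) overlapped. The germ cell variants were at or near 0, with at most 0.36 in any day 7 library for the 6 listed, and none was tested.

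Replication-dependent members at day 7 were led by H2A genes, in which 1 library stood out. H2ac23 (chr13:21810367-21810918) was at FPKM 192.9 and 217.7 in Rnf20 Flox/Flox and 128.5 and 533.4 in Amh-Rnf20-/- Sertoli cells, so the 2 Amh-Rnf20-/- libraries lay on either side of the controls (log2 fold change 0.71, SE 0.65, adjusted p = 0.648). H2ac7 was at 21.5 and 23.9 against 22.2 and 70.3 (1.05, SE 0.55, adjusted p = 0.43), and H2ac24 at 67.3 and 38.0 against 72.1 and 123.9 (0.92, adjusted p = 0.355). H2ac23 and H2ac24 share 93.5% and 93.1% of their windows with another member. In replicate 2 of the Amh-Rnf20-/- cells H2ac23 held 34.6% of H2A TPM, against 15.3% to 20.8% in the other 3.

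That library also had the highest summed FPKM of the 19 proliferation genes, 889.7, against 612.5 in the other Amh-Rnf20-/- library and 803.1 and 807.3 in the controls. Of these genes 0 were called, and the median log2 fold change was -0.07. Without Amh-Rnf20-/- replicate 1, H2ac23 (1.39, adjusted p = 0.000104) and H2ac7 (1.64, adjusted p = 0.000559) were called among 61 genes in all. Without replicate 2, H1f2 was called (1.08, adjusted p = 0.000578) among 650 genes. In all 4 libraries H1f2 was at 29.3 and 24.99 against 55.3 and 24.9 (0.61, SE 0.42, adjusted p = 0.541), with replicate 1 alone above the rest. Each of these calls rests on 1 library of Amh-Rnf20-/- cells, which is assumed to vary as the 2 controls do, since they alone supply the spread in these fits.

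H2ac18 was at FPKM 49.95 and 47.3 in Rnf20 Flox/Flox and 36.5 and 36.5 in Amh-Rnf20-/- Sertoli cells, lower in both (log2 fold change -0.38, SE 0.13, adjusted p = 0.306). H4c18 was at 1.24 and 0.85 against 3.55 and 2.58 (1.57, SE 0.59, adjusted p = 0.322). H2bc4, the highest H2B, was at 37.6 and 32.9 against 34.8 and 32.0 (-0.04), and H2bc22, the highest H2B of adult WT testis, was at 0.93 and 0.32 against 1.09 and 0.48. H2bc11 (3.87 and 4.12 against 2.43 and 2.91) and H3c3 (5.74 and 7.15 against 1.47 and 4.62) were lower in both, with adjusted p of 0.525 and 0.421. H3c2 was at 6.24 and 6.06 against 6.64 and 6.41, and H4c9 at 7.61 and 5.65 against 5.11 and 6.15.

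H1f3 was at FPKM 0.45 and 0.69 against 1.02 and 1.03 (log2 fold change 0.87, adjusted p = 0.44), and H1f4 overlapped. H3c10 and H4c8 overlapped too, at 3.88 to 5.80 and 2.13 to 3.23 over all libraries, as did H4c4 at 2.93 to 5.31. H2bc23 and H4bc24 were listed at the same FPKM in 3 of 4 libraries (2.56, 1.84 and 3.35), and share 97.3% and 88.5% of their windows with another member. The 15 replication-dependent members that were not tested reached at most 7.37, a value of H3c14 in 1 library that was 0 in the other 3.

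**Figure D4:**
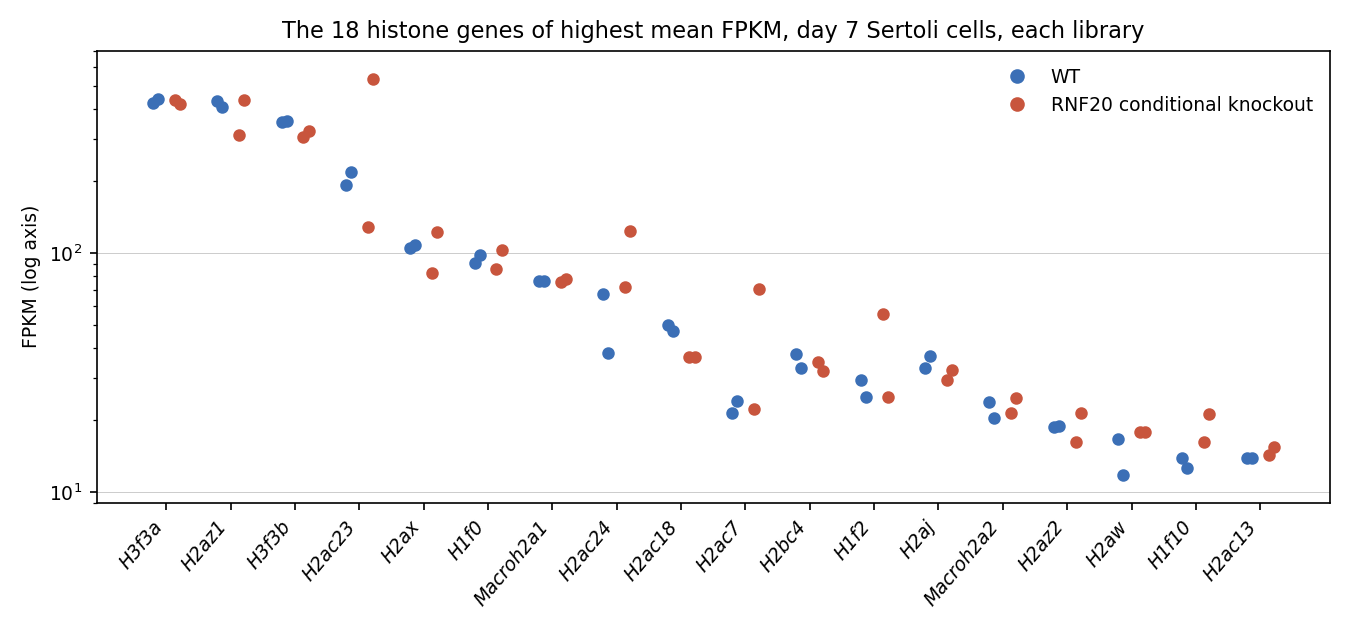
FPKM of the 18 histone genes of highest mean level in day 7 Sertoli cells on a log axis, 1 point per library (2 of Rnf20 Flox/Flox, labelled WT, and 2 of Amh-Rnf20-/-). Most groups overlap, and 1 Amh-Rnf20-/- library lies above the rest in H2ac23 at 533.4 and in H2ac7 at 70.3.

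The day 7 groups also differed in markers. Of the 15 Sertoli markers 14 were tested, and 11 of them were lower without overlap between the groups (summed FPKM 1873 and 1684 against 943.3 and 1384). All 7 myoid markers and all 6 fibroblast markers were higher without overlap, at 2090 and 1969 against 3645 and 3694 for the myoid sum. Of 12 spermatogonium markers 10 were lower without overlap (summed FPKM 216 and 209.9 against 148.8 and 146.1), as were all 5 spermatocyte markers tested. Among all genes tested at day 7, 24.8% lay higher and 26.1% lower without overlap in TMM-scaled counts. None of these markers was called, and their part in the histone values was not tested. Members were 0.334% and 0.326% of summed TPM in Rnf20 Flox/Flox and 0.307% and 0.388% in Amh-Rnf20-/- cells, the highest value again being that of replicate 2.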

How the data were processed

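RNA-seq libraries were made after oligo(dT) enrichment and read on a BGISEQ instrument. Per the methods of the study, the authors aligned reads by HISAT (genome build GRCm38.p6) and, for gene levels, by Bowtie2. The authors obtained FPKM with RSEM, scaled by gene length and library size. The deposited columns also hold estimated counts, which are not normalized, and TPM, which sum alike in each sample. Tool versions, read filters and strand handling are not given in the sources used here, and the processing of the adult table is known only from its columns. Some 20 columns of the adult table are empty and were not used. The study's methods give 3 individuals per day 7 group, of which 2 were analysed here.

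Estimated counts were rounded (10.7% to 13.2% of all values in a library, zeros included, were not whole). They were tested with edgeR 4.0.16 in R 4.3.3 by the quasi-likelihood test with TMM scaling. Each table was fitted separately, on genes with FPKM of at least 0.5 in 3 (adult) or 2 (day 7) libraries. P-values were adjusted over all tested genes by Benjamini-Hochberg, and a gene was called at an adjusted p under 0.001 and an absolute log2 fold change over 1. SE is the log2 fold change over the root of F. Limma 3.58.1 on log2(FPKM + 0.1 or + 1), DESeq2 1.42.0, other scalings, filters, a replicate block and leaving out each library were alternatives. Limma's fold changes are understated for low genes. The scripts were tested on simulated counts. Intervals at 95% and the floor of 3 counts cover counting error only.

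Members and gene lists were chosen with earlier results of these data known. The genes named are all replacement and germ cell variants, the 3 highest replication-dependent members of each family per table, the 5 largest rises and falls among called members, members that a count of 5 or fewer refers to, and called genes of the supply, removal and proliferation lists with the largest changes. Slbp, H1f3 to H1f5 and H2bc21 in adult testis, and H4bc24, H3c14 and H4c18 at day 7, were chosen after their values were seen. So were H2ac7, H2bc8, H2bc18, H2bc22 at day 7, the members of pairs with unlike levels and members called without 1 library. Loops were searched in GENCODE M21 transcripts, shared sequence in 50-nt windows of transcripts, and promoters in RefSeq windows. Of 86 members, 31 share over 50% of their windows with another member and 20 share none. There are 15 histone-like genes outside the naming rule, such as Cenpa, which were not used.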

Additional observations from a re-analysis of the deposited data

Results flagged for a closer look

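Of 41 members tested in both tables, 3 had every library of the knockout group on one side of WT in adult testis and on the other side at day 7. In TMM-scaled counts the groups did not overlap in 85.5% of all genes tested in adult testis and 51% at day 7. The share of all genes on opposite sides in the tables was not counted, so these members are a description. The difference between the tables was not tested, since they were made separately and hold tissue and cultured Sertoli cells. H1f10 had a log2 fold change of -3.37 in adult testis and 0.54 at day 7. H2aj was at 1.36 in adult testis and -0.15 at day 7. H2bc18 was at 1.64 in adult testis and -0.78 at day 7, with FPKM of at most 1.62 in any library. It entered the adult test through the labelled knockout alone. Groups of 2 or 3 libraries are too small for a test of outlying samples.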

How the results depend on the processing

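Among the 35 adult and 26 day 7 genes named by the rule no called value changed sign, and 20 values of 7 uncalled adult genes and 32 values of 14 uncalled day 7 genes did. Of genes named outside the rule, uncalled H2bc21 (adult) and H4bc24 (day 7) also changed sign, and the others were not counted. For the called adult members, 5 were higher with limma on log2(FPKM + 1) and 6 at an adjusted p under 0.05, and 21 were lower with DESeq2, which called 64.4% of all genes, and 27 at an adjusted p under 0.05. With the replicate block 0 were higher and 0 lower, but the replicate numbers only name samples, as same-numbered samples deviated together with correlations of 0.0178 to 0.0260 in the adult table and 0.0371 at day 7. The adult median log2 fold change of all members, -1.08, was -0.27 with limma at a pseudocount of 0.1, -0.20 with limma at 1 and -0.22 with total-count scaling. With total-count scaling the H2A median was -1.16, H2B 0.97, H3 -0.52 and H4 0.28. With limma at 1 it was -1.45 for H1, -0.61 for H2A, -0.24 for H3 and 0.06 for H4, and at 0.1 it was -0.38 for H3 and 0.37 for H4. At day 7 the H1 median was 0.37 with limma at 1. The causes were not tested. Total-count scaling made 30.8% of member calls higher (20% with TMM) and 72.1% of all calls (49.2%).

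Leaving out 1 library, adult members called higher ranged from 1 to 5 and lower from 2 to 16, and at day 7 from 0 to 2 and 0 to 0. Of the 15 called, H1f2, H2al2a and H4c1 were called in 6 of 6 and H2ac18 in 5. Without any 1 of WT 1, WT 2, WT 3, labelled knockout 2 or 3, 4 members were called. Without labelled knockout 1, 21 were, among them Hils1, H1f10, H2ac19, H2bfm, H2bc4 and H2aw. The adult medians ranged from -1.35 to -0.80 for all members, -3.78 to -2.80 for H1, -2.07 to -1.66 for H2A, 0.01 to 0.44 for H2B, -1.90 to -1.01 for H3 and -0.80 to -0.07 for H4. At day 7 they ranged from -0.17 to 0.12 for all, 0.34 to 0.64 for H1, -0.37 to 0.20 for H2A, -0.14 to 0.09 for H2B, -0.11 to 0.05 for H3 and -0.32 to 0.28 for H4. Libraries with 2 or 3 per group, oligo(dT) capture and shared sequence limit all values, and a member at a few counts is not shown to be absent.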
